A study of Mus musculus with 4 samples.

Results

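The proteasome genes described here are the protein-coding genes whose symbol starts with Psma, Psmb, Psmc, Psmd, Psme, Psmf or Psmg in GENCODE M21. Of 50 such genes, 47 had entries in the read-count table, among 14949 genes named in it, and they comprised 265 of 46637 isoforms. Psma8, Psmb8 and Psmb11 had no entry and were not analysed here. The rule uses gene names only and no measured value. Reads were Nanopore long reads of PCR-amplified cDNA from mouse neural stem cells, which the labels describe as primary neural cells of the brain and the study grew as neurospheres from embryonic neocortex.

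The library labelled Tut1f/f received an empty lipid nanoparticle (LNP) and served as the control. The library labelled Tut1f/f;Cre, that labelled Trp53f/f;Cre, and a last one labelled Tut1f/f;Trp53f/f;Cre were exposed for 3 days to LNP that carried mRNA of Cre, an enzyme that cuts out exons flanked by loxP sites. Every culture thus carried floxed alleles, there was 1 library per genotype, and no library combined Cre mRNA with unfloxed alleles, so that exposure to Cre and loss of the floxed exons cannot be told apart in a comparison with the control. Tut1 encodes the terminal uridylyltransferase of U6 snRNA, a spliceosomal RNA that pairs with the 5′ splice site, and Trp53 encodes the tumour suppressor p53. Values are given throughout with the control first, then Tut1f/f;Cre, next Trp53f/f;Cre, last Tut1f/f;Trp53f/f;Cre.

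The 26S proteasome degrades proteins that carry ubiquitin chains. Its core particle is a barrel of alpha and beta rings, and the beta subunits Psmb5, Psmb6 and Psmb7 hold the active sites. Its regulatory particle caps the barrel: a base with a ring of ATPases (Psmc1 to Psmc6) unfolds substrates, and a lid that includes the deubiquitinase Psmd14 removes the chains. Dedicated chaperones assemble both particles, and dividing cells such as neural stem cells need proteasomes to clear cell-cycle regulators.

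The libraries held 2863392 to 4244467 reads assigned to genes, and reads that named no gene made up 17.2% of all reads in the control and 27.3% to 30.2% in the libraries given Cre mRNA. All 8 neural stem cell markers were present, with a summed level of 11530 to 13320 CPM (reads per 1000000 gene reads, scaled by TMM), against 14.9 to 22.0 CPM for 3 neuronal and 70.9 to 90.1 CPM for 3 oligodendrocyte markers. Fabp7 made up most of that sum (9381 to 11380 CPM), and in the edgeR test for Cre mRNA described below Hes1 (149, 500, 455 and 452 CPM, adjusted p = 0.000461), Sox9 and Nes were called higher and Vim (1265, 758, 619 and 622 CPM, adjusted p = 0.00455) lower. Their part in the results below was not tested. No endothelial or microglial marker had an entry, and the only fibroblast marker with an entry reached at most 0.287 CPM. Trp53 reads numbered 175, 67, 10 and 19 and were lowest where Trp53 was floxed and Cre was given. Tut1 reads numbered 37, 11, 14 and 27, and so were low in the Trp53f/f;Cre-labelled library and near the control level, by CPM, in the Tut1f/f;Trp53f/f;Cre-labelled library. These Tut1 counts go against both labels, although the study describes a deletion of a single exon, after which reads of the other exons can remain. For Tut1f/f cells given Cre mRNA, the study reports efficient deletion of that exon by qPCR or Nanopore reads. Reads of the annotated isoform Tut1-201 alone numbered 28, 0, 2 and 6, and so were low in all 3 libraries given Cre mRNA, that with intact Tut1 included. Libraries are therefore named by their labels. One ribosomal RNA entry took 18.7% of gene reads in the control and 5.46% to 9.76% in the others. The control thus stood apart in both measures, and their part in the comparisons with it was not tested. There were no replicates, and intervals cover counting error only, since amplified reads carried no molecular identifiers and may copy 1 molecule.

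Psmg4, a chaperone that helps to assemble the alpha ring, was the one member with isoforms called (by the exact test and the limit of 10 percentage points given below) in both pairings that differ in the Tut1 label and share no library. The share of all isoforms called in both pairings is not given here. Psmg4 had only 2 isoforms, so their calls reflect a single difference. Its isoforms differ in an exon of 76 bases at chr13:34166061-34166136 (GRCm38, plus strand), which lies within the coding sequence and is present in Psmg4-202 and skipped in Psmg4-201. The exon is shown first, in capitals between the ends of its neighbours, and then the junction without it, in capitals from the start of the last exon.
Psmg4-202, exon included: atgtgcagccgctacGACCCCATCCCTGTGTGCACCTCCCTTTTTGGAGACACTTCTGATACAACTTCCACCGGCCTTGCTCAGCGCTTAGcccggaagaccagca
Psmg4-201, exon skipped: atgtgcagccgctacCCCGGAAGACCAGCA
The length of the exon leaves a remainder of 1 when divided by 3, and the annotated coding sequence, without its stop codon, is 369 bases with the exon and 246 bases without it.

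The skipped isoform made up 35.3% of Psmg4 reads in the control (219 of 621, Wilson 95% interval 31.6% to 39.1%). It made up 49.9% in the Tut1f/f;Cre-labelled library (306 of 613, 46.0% to 53.9%), 40% in the Trp53f/f;Cre-labelled library (302 of 755, 36.6% to 43.5%) and 50.7% in the Tut1f/f;Trp53f/f;Cre-labelled library (304 of 600, 46.7% to 54.7%). Both libraries labelled as Tut1-floxed with Cre were thus above both others, with intervals that did not overlap. The share of all isoforms that separate the libraries in this way is not given here. The usage of an isoform was compared by Fisher's exact test (two-sided) on its reads, adjusted over all isoforms tested, which compares libraries and not conditions, and called where the adjusted p was under 0.05 and usage differed by 10 percentage points or more. Skipping was higher by 14.7 points in the Tut1f/f;Cre-labelled library than in the control (adjusted p = 8.27e-06) and by 10.7 points in the Tut1f/f;Trp53f/f;Cre-labelled library than in that labelled Trp53f/f;Cre (adjusted p = 0.00822). Against the control it was also higher in the Tut1f/f;Trp53f/f;Cre-labelled library, by 15.4 points (adjusted p = 4.24e-06), and the Tut1f/f;Cre-labelled and Trp53f/f;Cre-labelled libraries differed by 9.92 points (adjusted p = 0.0434), just under the limit. Between the libraries labelled Trp53f/f;Cre and Tut1f/f it differed by 4.73 points (adjusted p = 0.253), and between the 2 libraries labelled as Tut1-floxed with Cre by 0.748 points (adjusted p = 1). In edgeR's diffSpliceDGE with Tut1 and Trp53 status over all 4 libraries, which leaves 1 residual degree of freedom, the usage of Psmg4-201 did not pass for Tut1 status (adjusted p = 1). A rare isoform of Psma3, named by a read, was ordered in the same way, at 3 of 1724, 19 of 1369, 3 of 1339 and 24 of 1626 Psma3 reads (0.174%, 1.39%, 0.224% and 1.48%), far under that limit, and did not pass for Tut1 status either (adjusted p = 1, edgeR). It was chosen after its values were seen. Total Psmg4 was 156, 202, 217 and 203 CPM, lowest in the control, and did not pass the gene test for Cre mRNA described below (adjusted p = 0.194). The Tut1 reads given above bear on how these Psmg4 values are read.

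**Figure D1:**
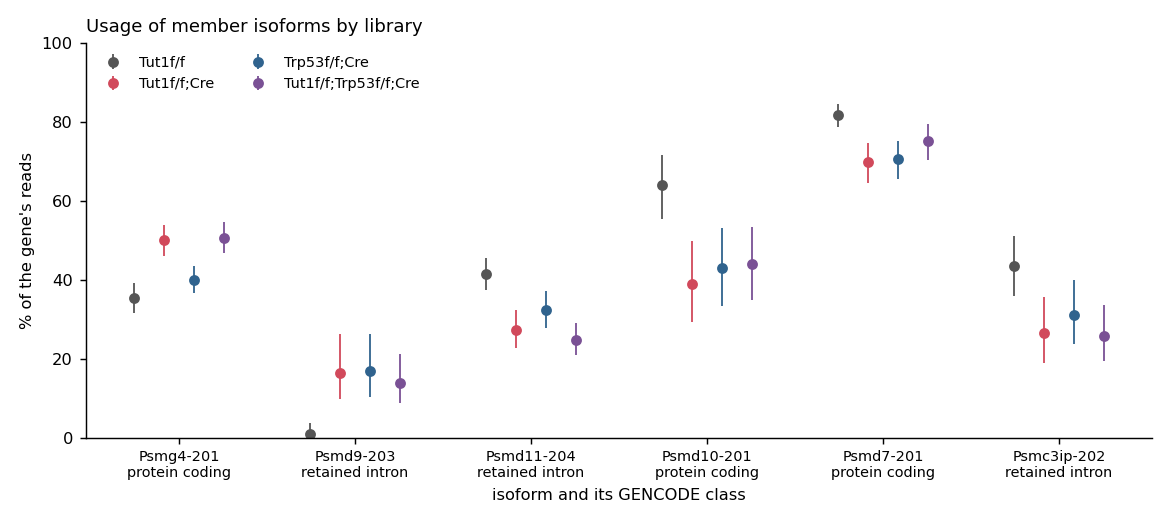
Percentage of a gene's reads (vertical axis) assigned to each of 6 member isoforms in the 4 libraries, with Wilson 95% intervals. Psmg4-201 is at 50.7% and 49.9% in the Tut1f/f;Trp53f/f;Cre-labelled and Tut1f/f;Cre-labelled libraries against 35.3% and 40% in the others, while Psmd9-203 is at 1.04% in the control and at 13.8% to 16.9% elsewhere.

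Other isoforms of members differed from the control in several or all libraries given Cre mRNA, over both floxed loci. By the same exact test, 10 of 179 member isoforms (in 7 genes) were called for Tut1f/f;Cre, 6 of 177 for Trp53f/f;Cre and 7 of 186 for Tut1f/f;Trp53f/f;Cre, each against the control. Over all isoforms tested in the table the called shares were 8.66%, 9.12% and 6.49%, and the counts of member isoforms did not stand above that background. Between Tut1f/f;Trp53f/f;Cre and Trp53f/f;Cre the Psmg4 pair accounted for both calls among 178 member isoforms, with a background of 1.24%. This count did not stand above its background either.

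Psmd9, a chaperone of the base, gained an intron-containing isoform in all 3 libraries given Cre mRNA. Psmd9-203 is a single exon at chr5:123228258-123229031 (plus strand) annotated as a retained intron. It held 2 of 193 Psmd9 reads in the control (1.04%), and 13 of 79 (16.5%), 14 of 83 (16.9%) and 16 of 116 (13.8%) in the other libraries. The 3 libraries given Cre mRNA overlapped with each other and lay above the control, with adjusted p from 3.93e-05 to 0.000195 by the exact test.

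A fit of isoform usage to Cre mRNA status over the 4 libraries (diffSpliceDGE, 2 residual degrees of freedom) called 6 of 211 member isoforms (2.84%), near the background of 2.59%. All 6 were used more in the libraries given Cre mRNA. The share of all called isoforms that were used more is not given here. Psma3-205 of the alpha ring gave 0.986%, 6.87%, 5.75% and 5.66% of Psma3 reads (adjusted p = 0.00406, edgeR). Psma1-205 gave 0.223%, 2.01%, 1.62% and 2.15% of Psma1 reads (adjusted p = 0.0150, edgeR). Psmd13-205 of the lid gave 1.30%, 9.71%, 5.22% and 7.32% of Psmd13 reads (adjusted p = 0.0484, edgeR). In each case the control was lowest, but the control values of Psma1-205 and Psmd13-205 rest on 3 and 4 reads. Psmd9-203 (adjusted p = 0.00472) was called too, as was Psmd14-204, a processed transcript at 1, 10, 5 and 16 reads (adjusted p = 0.0366, edgeR). The sixth was an isoform of Psmb4 named by a read, at 2.12%, 12.8%, 11.1% and 14.4% of Psmb4 reads (adjusted p = 0.0255, edgeR), whose structure the table does not give. Without the Tut1f/f;Cre-labelled library only 1 member isoform was called, without Trp53f/f;Cre 7 and without Tut1f/f;Trp53f/f;Cre 6, where 0.485%, 2.06% and 4.31% of all isoforms were. For Tut1 status diffSpliceDGE called 0 of 211 member isoforms (2 at an unadjusted p under 0.05), with a background of 0.0%.

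Of the called Ensembl isoforms, 4 are annotated as retained introns, and all 5 read from an exon into the intron that follows it in the main coding transcript. The share of such isoforms among all those called is not given here. Over all protein-coding genes, too, the share of retained-intron reads was higher in the libraries given Cre mRNA (below). The boundaries are shown because the first intron bases are what U6 snRNA pairs with. Each run holds the last bases of the exon in lower case and the first bases of the intron in capitals, on the gene's strand, from GENCODE M21 transcripts (GRCm38). Whether each isoform runs through the whole intron was not checked.
Psmd9-203, intron 1: gacgtcctggagagcGTGAGTGTGGCGGGG
Psma1-205, intron 1: tgcgccggagctatgGTGTGTTGAGCCCCG
Psma3-205, intron 2: tgtggaaaacagtagGTAAGAAGCCCTGTT
Psmd13-205, intron 6: ctgcaggctacaaagGTGAGAGAGAGTAAT
Psmd14-204, intron 2: acagttactgaacagGTGAGGTTTAAGAAT
Each of these introns opens with GT. The last exon base is at chr5:123228444 for Psmd9, chr7:114276001 on the minus strand for Psma1, chr12:70978815 for Psma3, chr7:140887105 for Psmd13 and chr2:61720571 for Psmd14.

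Not all retained introns moved that way. Psmd11-204, a retained-intron isoform of a lid gene, made up 41.4% of Psmd11 reads in the control and 27.2%, 32.4% and 24.7% in the others, and was called lower for Tut1f/f;Cre (adjusted p = 0.000507) and Tut1f/f;Trp53f/f;Cre (adjusted p = 2.41e-06) by the exact test. Psmc3ip-202, also annotated with a retained intron, was at 43.4%, 26.4%, 31.2% and 25.9% of Psmc3ip reads. Psmc3ip carries the prefix but is a cofactor of meiotic recombination that was found through its binding to Psmc3. Over all members, plain retained-intron transcripts took 2.53%, 3.03%, 2.84% and 2.83% of reads, and over all protein-coding genes 1.21%, 1.95%, 1.82% and 1.77%. Within the core particle the shares were 2.22%, 3.02%, 2.53% and 2.53%, and within the regulatory particle 2.25%, 1.87%, 2.18% and 1.96%. The members thus held more such reads than protein-coding genes at large in every library, and the control was the lowest library in the core particle and the highest in the regulatory particle.

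The most used isoform of some members took a smaller share than in the control. Psmd10-201, of the base chaperone also known as gankyrin, fell from 63.9% of Psmd10 reads to 39.0%, 43.0% and 43.9% (adjusted p from 0.00769 to 0.0287, exact test), while a variant of it rose from 26.2% to 57.3% and 47.3% in the libraries labelled Tut1f/f;Cre and Trp53f/f;Cre. That variant stood at 43.0% in the Tut1f/f;Trp53f/f;Cre-labelled library, where it was not called. Psmd7-201, of a lid scaffold subunit, went from 81.7% to 69.8%, 70.5% and 75.1%, and was called in the first 2 comparisons only. For Psmd5 a variant of its main transcript stood at 88.8%, 80.9%, 65.7% and 81.3%, on 35 to 152 reads per library, and was called for Trp53f/f;Cre only (adjusted p = 0.0155, exact test; 0.497 and 0.459 in the others). The main Psmb4 isoform, named by a read, was at 89.4%, 73.4%, 77.8% and 77.8%, and was called in the first 2 comparisons (adjusted p = 0.00675 and 0.0411, exact test) and not in the last (0.0833).

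At the level of whole genes, members of the regulatory particle were lower relative to the core in each library given Cre mRNA. Reads of the 17 regulatory genes made up 38.5% of all core and regulatory reads in the control (Wilson 95% interval 38.0% to 39.1%). They made up 31.4% (30.7% to 32.0%), 30.7% (30.1% to 31.3%) and 31.4% (30.8% to 32.0%) in the libraries given Cre mRNA. The 3 libraries given Cre mRNA overlapped with each other and lay below the control. This share does not depend on how libraries are scaled against each other. In summed level, the 14 core genes held 4780, 4748, 4450 and 5664 CPM, and the regulatory genes 2996, 2169, 1971 and 2592 CPM. Reads of RNA from many cells cannot tell fewer cells of a kind from less RNA per cell.

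**Figure D2:**
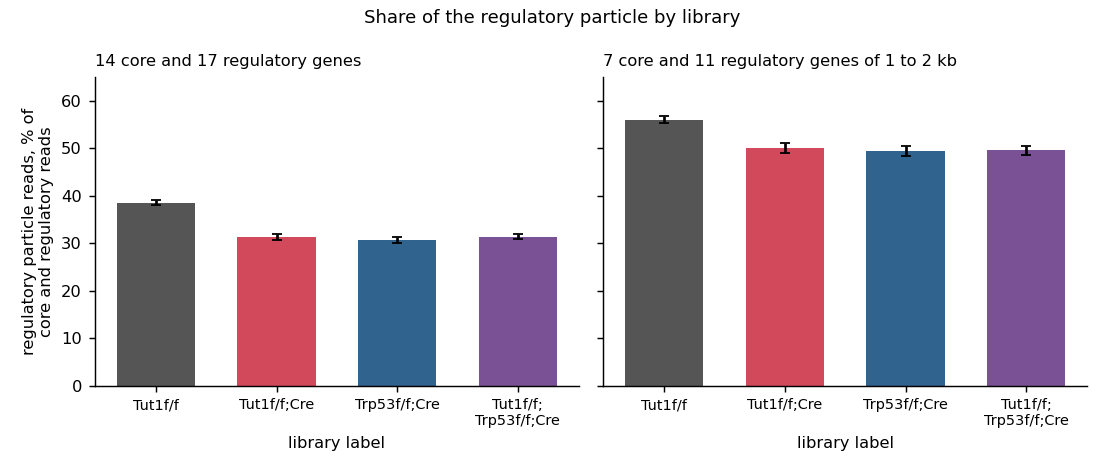
Reads of regulatory particle genes as a percentage of core and regulatory reads (vertical axis) in each library, with Wilson 95% intervals, for all genes (left) and for those with a main transcript of 1 to 2 kb (right). The control stands at 38.5% and the 3 libraries given Cre mRNA at 30.7% to 31.4% on the left, and at 56.1% against 49.4% to 50.1% on the right.

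The share was lower in all 3 libraries given Cre mRNA under each set of genes tried. Without Psmd2 it was 37.3%, 30.9%, 30.3% and 30.8%, and without Psma7 and Psmb6, the core genes with most reads, it was 46.8%, 39.3%, 38.6% and 38.7%. Without the 6 members called for Cre mRNA (below) it was 31.8%, 27.2%, 26.5% and 27.4%, and the distance of the Tut1f/f;Cre-labelled library from the control narrowed from 7.17 to 4.60 points, that of Trp53f/f;Cre from 7.84 to 5.29 and that of the last from 7.13 to 4.42. Without members that share sequence with a copy or overlap another gene, it was 44.7%, 34.8%, 34.2% and 34.7%. These alternatives were chosen after the values were seen.

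Member by member, the log2 ratio of scaled CPM to the control had a median over the regulatory particle of -0.49 for Tut1f/f;Cre, -0.73 for Trp53f/f;Cre and -0.22 for Tut1f/f;Trp53f/f;Cre. Over the core particle it was -0.02, -0.12 and 0.21, and over all 9882 genes tested it was -0.01, -0.02 and -0.01 (pseudocount 0.5 CPM). Of 17 regulatory genes, 16, 15 and 12 lay below the control, where 50.3%, 50.9% and 50.7% of all genes did. Among the 2075 genes with a main transcript of 1 to 2 kb, the range of most regulatory genes with a known length, 1550, 1575 and 1355 lay below it. Of 14 core genes, 8, 10 and 2 lay below it. The alpha ring lay above the control in all 7 genes for Tut1f/f;Trp53f/f;Cre, with log2 ratios of 0.03 to 0.53, and in 3 and 1 of 7 for the others. All 3 base genes other than ATPases, 8, 7 and 6 of the 8 lid genes and 5, 5 and 3 of the 6 ATPase genes lay below it. The core median for Tut1f/f;Cre changed sign with the scaling and is near that of all genes. The 3 comparisons share the control library, so their likeness is not independent evidence.

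**Figure D3:**
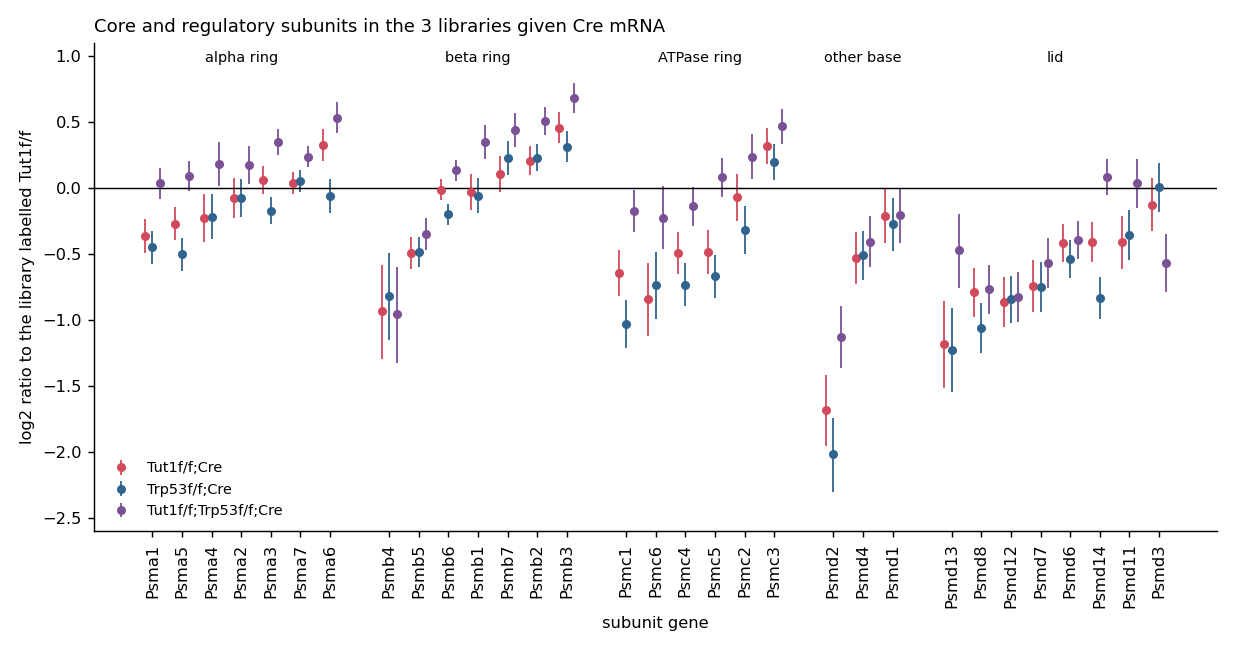
Log2 ratio of scaled CPM to the library labelled Tut1f/f (vertical axis) for each core and regulatory subunit gene (horizontal axis) in the 3 libraries given Cre mRNA, with exact 95% counting intervals. Most ATPase, base and lid genes lie below 0, down to -2.02 for Psmd2, while alpha and beta genes scatter around it and Psmb4 lies near -0.9 in all 3.

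Transcript length moved with these ratios over the whole table, and its part in the difference between particles was not tested. The main coding transcripts of the 15 regulatory genes with a known length were longer, with a median of 1.63 kb (1.32 to 3.11 kb) against 1.16 kb (0.766 to 2.91 kb) for core genes. Over genes of at least 50 CPM, the median log2 ratio of Tut1f/f;Cre to the control was 0.18 under 1 kb, -0.26 at 1 to 1.5 kb, -0.45 at 1.5 to 2 kb, -0.14 at 2 to 4 kb and 0.28 at 4 kb or more. The regulatory genes stood at -0.49 over 4 members of 1 to 1.5 kb, -0.64 over 7 of 1.5 to 2 kb and -0.53 over 4 of 2 to 4 kb. Among the 11 regulatory genes of 1 to 2 kb, 10, 9 and 7 lay below the median of such genes of their length in the 3 comparisons, as did 2, 3 and 1 of 7 core genes. Against medians of the finer classes of 1 to 1.5 kb and 1.5 to 2 kb, the counts were 8, 9 and 6 regulatory genes and 3, 3 and 1 core genes. By class, these were 4, 4 and 3 of the 4 regulatory genes of 1 to 1.5 kb and 4, 5 and 3 of the 7 of 1.5 to 2 kb. With both particles held to 1 to 2 kb, the regulatory share was 56.1%, 50.1%, 49.4% and 49.6%. Lengths were not equal within that range, where 6 of 7 core genes had 1 to 1.5 kb and 7 of 11 regulatory genes 1.5 to 2 kb. A length was available for 42 members and for 6836 of the genes tested.

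**Figure D4:**
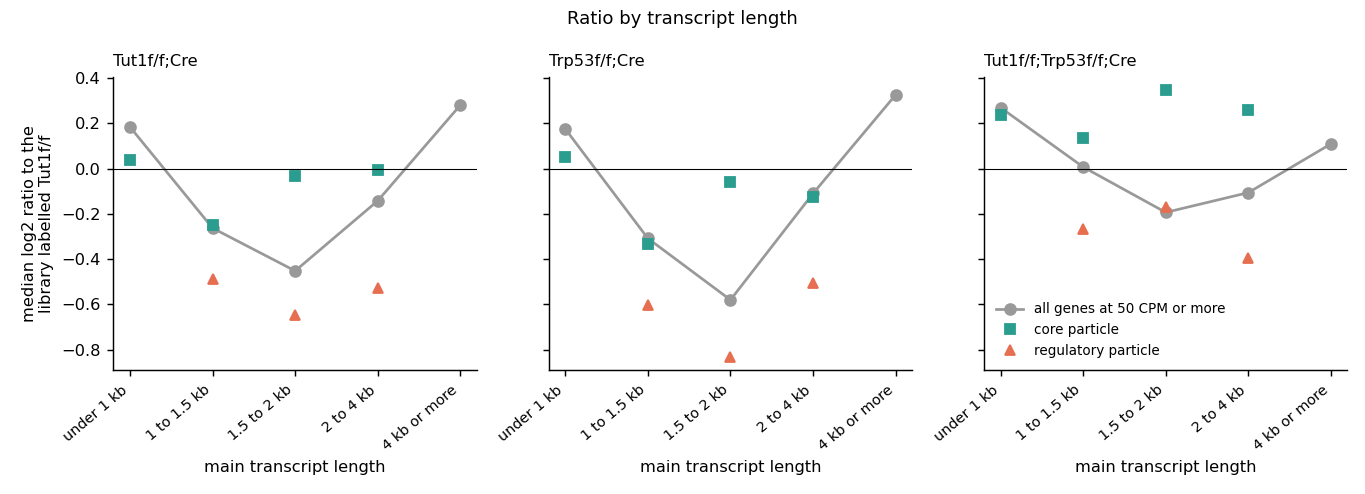
Median log2 ratio to the library labelled Tut1f/f (vertical axis) by class of main transcript length (horizontal axis), for genes of at least 50 CPM (grey line), core genes (squares) and regulatory genes (triangles), 1 panel per library given Cre mRNA. The grey line dips to -0.45, -0.58 and -0.19 at 1.5 to 2 kb, and regulatory medians lie below it in every class but that of 1.5 to 2 kb in the right panel.

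A gene test of Cre mRNA status over the 4 libraries (edgeR's quasi-likelihood test, 2 residual degrees of freedom, Benjamini-Hochberg adjustment over 10596 genes) called 6 of 46 members, all lower with Cre mRNA. Over all genes 20.9% were called in either direction and 11.5% lower, so the count of members called lower is near its background and that in either direction is below it. In this test the 3 genotypes serve as the spread, and the control is assumed to vary as they do.

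Psmd2 (chr16:20651652-20663414, plus strand, GRCm38), a large scaffold of the base and a receptor for ubiquitin-like domains, had 151, 47.2, 37.3 and 69.1 CPM. All 3 libraries given Cre mRNA lay far below the control, and it fell by 1.57 ± 0.28 (SE) on the log2 scale (adjusted p = 0.00231). Psmb4 (chr3:94884093-94886961, minus strand, GRCm38), a beta subunit without an active site of its own, had 59.3, 31.0, 33.6 and 30.5 CPM and was the only core gene called (-0.90 ± 0.25, adjusted p = 0.0239). Its 3 lower values differed from each other by less than their counting intervals.

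The lid contributed the other 4. Its subunits Psmd12, Psmd8 and Psmd13 help to build the lid scaffold. Psmd12 lies at chr11:107479484-107504362, Psmd8 at chr7:29174188-29180701, Psmd13 at chr7:140881968-140898643 and Psmd7 at chr8:107580381-107588464. Psmd12 had 196, 108, 109 and 111 CPM, with nearly equal values in the 3 libraries given Cre mRNA (-0.84 ± 0.21, adjusted p = 0.0146). Psmd8 had 197, 114, 94.4 and 116 CPM (-0.86 ± 0.22, adjusted p = 0.0150). Psmd7, which forms a dimer with the deubiquitinase Psmd14, had 171.7, 102.7, 102.2 and 115.6 CPM (-0.68 ± 0.22, adjusted p = 0.0415). Psmd13 had 77.2, 34.0, 33.0 and 55.6 CPM (-0.92 ± 0.29, adjusted p = 0.0397). It was thus less low in the Tut1f/f;Trp53f/f;Cre-labelled library, and it overlaps Sirt3 on the opposite strand, from which its reads cannot be told apart where strand was not used. Psmd5, a base chaperone at 38.22, 15.52, 10.04 and 27.11 CPM, lay just outside the threshold (adjusted p = 0.0503).

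**Figure D5:**
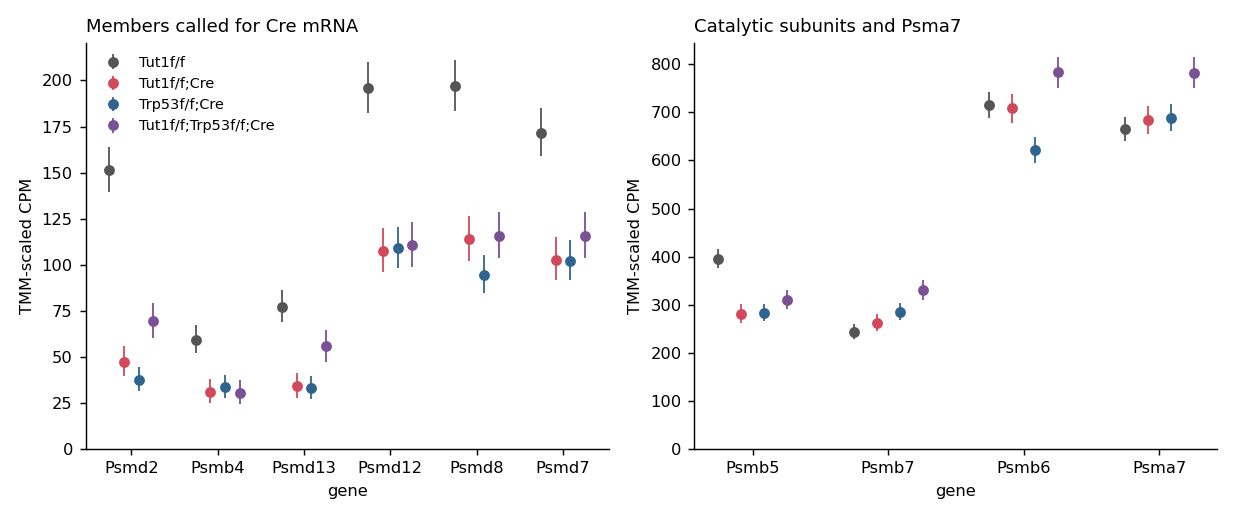
TMM-scaled CPM (vertical axis) per library with exact Poisson 95% intervals for the 6 members called for Cre mRNA (left) and for the catalytic subunits and Psma7 (right). On the left the control is the highest point for every gene, such as 196 CPM against 108 to 111 CPM for Psmd12, and on the right only Psmb5 has the control on top.

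These calls depended on the set of libraries. Without the Tut1f/f;Cre-labelled library 1 member was called, without Trp53f/f;Cre 0 (6 at an unadjusted p under 0.05), and without Tut1f/f;Trp53f/f;Cre 16, all lower. Over all genes the same fits called 14.4%, 0.0581% and 37.3%, so that the counts of members moved with those of the whole table. DESeq2 called 3, namely Psmd2, Psmd12 and Psmd8, and 10.52% of all genes. In the additive model of Tut1 and Trp53 status, edgeR called 0 of 45 members for either factor, with 0 members at an unadjusted p under 0.05 for both, and DESeq2 also called 0. Over all genes 0.0% were called for Tut1 status (0 of 9882, with 171 at an unadjusted p under 0.05) and 0.0101% for Trp53 status. That model has 1 residual degree of freedom.

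Single libraries were then compared without a test, counting a gene where its ratio reached 1.5-fold with an exact 95% interval that did not span 1. Against the control, 10 members were lower and 0 higher in the Tut1f/f;Cre-labelled library, where 22.0% and 20.2% of all genes were. In the Trp53f/f;Cre-labelled library 14 were lower and 1 higher, with 23.6% and 20.6% of all genes. In the Tut1f/f;Trp53f/f;Cre-labelled library 4 were lower and 1 higher, with 18.3% and 16.7% of all genes. Of the 17 regulatory genes 7, 10 and 3 were lower, and of the 14 core genes 1 in each. Over all 47 members the count of lower genes was near the background for Tut1f/f;Cre, over it for Trp53f/f;Cre and under it for the last library, and those of higher genes were under it in each. Psmd2, Psmb4, Psmd8 and Psmd12 passed as lower in all 3 comparisons, 4 of 47 where 11.8% of all genes did, and 0 members passed as higher in all 3, where 11.5% did.

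The ATPase ring divided by gene and by library. Of its 6 genes, 5, 5 and 3 lay below the control, with a median log2 ratio of -0.49, -0.70 and -0.03. Psmc1 had 205, 131, 100 and 182 CPM, and Psmc6 had 94.3, 52.5, 56.5 and 80.7 CPM. For both, the Tut1f/f;Trp53f/f;Cre-labelled library lay nearer the control than the other 2. Psmc4 had 231, 164, 139 and 209 CPM and Psmc5 had 215, 154, 135 and 228 CPM, so that in both the last library lay near the control, and for Psmc5 above it. Psmc3 went the other way, with 226, 281, 259 and 312 CPM, lowest in the control. None of these passed the edgeR test.

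The library labelled Trp53f/f;Cre was then compared with Tut1f/f;Trp53f/f;Cre, where both carry Cre and floxed Trp53. By the ratio rule 10 of 47 members were higher in the latter and 0 lower, where 11.1% and 7.25% of all genes were. Of all 47, 39 had a log2 ratio above 0, where 52.5% of all genes and 1382 of the 2075 genes with a main transcript of 1 to 2 kb did. The median log2 ratio was 0.35 over the core and 0.39 over the regulatory particle, against 0.03 over all genes. Genes of at least 50 CPM stood at 0.25 for transcripts of 1 to 1.5 kb and 0.37 for those of 1.5 to 2 kb. Against the medians of these classes, 5 of 11 regulatory and 2 of 7 core genes lay below, so that the regulatory genes were spread about the level of genes of their length.

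Psmd5 had the largest ratio, 2.70-fold, on 35 and 80 reads. The lid deubiquitinase Psmd14 was 1.89-fold higher, at 142 against 269 CPM (254 and 191 CPM in the libraries labelled Tut1f/f and Tut1f/f;Cre). Psmd2 was 1.85-fold, Psmc1 1.81-fold, Psmc5 1.69-fold and Psmd13 1.68-fold higher. Psmd9 was 1.65-fold higher, and Psma6, Psmc4 and Psma5 were 1.51-fold higher, close to the limit of the rule. These are values between 2 libraries, with no replicate behind either, and neither edgeR nor DESeq2 called any member for Tut1 status. Both libraries of this pairing have Tut1 reads that go against their labels. When the Tut1f/f;Trp53f/f;Cre-labelled library was set against that labelled Tut1f/f;Cre, 40 of 47 members were above 0 (median log2 ratio 0.21), where 52.6% of all genes were (median 0.03), and by the ratio rule 4 were higher and 0 lower, among 655 genes higher and 521 lower of 9882.

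The catalytic beta subunits were abundant in every library. Psmb6, the caspase-like subunit's gene, had 715, 709, 622 and 783 CPM. Psmb7, of the trypsin-like subunit, had 244, 262, 284 and 330 CPM, lowest in the control. Psmb5, of the chymotrypsin-like subunit that is the main target of proteasome inhibitors, had 396, 281, 283 and 310 CPM and was highest in the control. Its log2 change with Cre mRNA was -0.44 ± 0.20 (adjusted p = 0.129, edgeR), which did not pass. Against the control, Psmb3 was the one core gene past the ratio rule upward, at 290, 398, 360 and 466 CPM (1.61-fold for Tut1f/f;Trp53f/f;Cre), and did not pass the edgeR test (adjusted p = 0.117).

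Of the inducible counterparts that replace the catalytic subunits under interferon, Psmb9 was low, with 8, 6, 4 and 6 reads (2.01, 1.98, 1.15 and 2.03 CPM). Psmb10 had 52.6, 56.5, 60.6 and 59.3 CPM, a range of 1.15-fold. It lay below Psmb5, Psmb6 and Psmb7 in every library, but above the constitutive Psmb4 in the libraries given Cre mRNA. No difference in Psmb9 was detectable at this depth, and its reads can be mixed with those of Tap1 on the opposite strand.

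Per kb of main transcript, averaged over the 4 libraries, the highest member of the alpha ring was Psma7 (771 CPM per kb) and that of the beta ring was Psmb6 (886). Psmc3 led the ATPases (165), Psmd6 the lid (160) and Psmd4, a ubiquitin receptor, the other base genes (91.3). Core genes had higher levels per length: the group medians were 246 and 353 CPM per kb for the alpha and beta rings and 129, 76.9 and 34.8 for the ATPases, the lid and the other base genes. Core main transcripts were shorter (above), which raises their values per kb. Without division by length, the medians over core genes were 314.3, 281.0, 274.5 and 354.0 CPM. Those over regulatory genes were 171.7, 113.9, 109.1 and 116.6 CPM. A level sums all isoforms of a gene while the length is that of a single transcript, and Psmc2 and Psmd8 had no length. The length behind Psmb4, lowest of the beta ring at 32.6, is that of a minor Ensembl transcript of the gene. Among the core chaperones Psmg4 was highest (351) and Psmg1 lowest (73.1). Psmd10 led the base chaperones at 21.5, and Psmb10 was at 43.6.

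Among the activators and inhibitors outside the regulatory particle, Psme1 had the highest level per kb. Psme1 (39.0 CPM per kb) had 48.0, 46.9, 42.8 and 35.9 CPM and encodes part of the ring that replaces the regulatory particle at the core. Psme3, the nuclear activator, had 95.6, 87.5, 82.4 and 73.2 CPM. Psme4 had 14, 18, 29 and 15 reads, and was past the ratio rule in the Trp53f/f;Cre-labelled library (2.36-fold, interval 0.27 to 2.28 on the log2 scale). Psmf1, which codes for an inhibitor of the core, had 29.7, 26.4, 18.4 and 25.1 CPM. Of the 6 genes in this group 5 lay below the control in all 3 comparisons, which share that library and in which 37.5% of all genes did, though only Psmf1 passed the ratio rule downward, and in a single library. The core chaperones Psmg1, Psmg2 and Psmg3 lay between 66.0 and 104 CPM in every library, and none passed the edgeR test.

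Genes of the ubiquitin pathway outside the prefix were read from a list of 33 symbols, some of them older names of a gene also listed by its present one, and 28 had entries. Of 26 tested, 5 were called lower and 3 higher for Cre mRNA (edgeR), against 20.9% of all genes in either direction. Among the lower were Uba1, the main ubiquitin-activating enzyme (-1.52 ± 0.37, adjusted p = 0.0112), Adrm1, a ubiquitin receptor of the regulatory particle (76.9, 31.0, 35.3 and 48.8 CPM, adjusted p = 0.0203), Txnl1, a thioredoxin-like protein bound to the regulatory particle (-0.69) and Nfe2l1, a transcription factor that induces proteasome genes (adjusted p = 0.0470). Among the higher were Zfand5, a proteasome activator (1.68), and Ecpas, an adaptor of the 26S particle (2.35, on 6, 26, 25 and 23 reads). Nfe2l1 had 87, 40, 38 and 25 reads. Of the genes just named, DESeq2 called Uba1, Adrm1 and Zfand5, and did not call Txnl1, Nfe2l1 or Ecpas. Pomp, the maturation factor of the core, had 281, 385, 313 and 405 CPM and Sem1 of the lid did not pass either (adjusted p = 0.215 and 0.169, edgeR). By the ratio rule, 4 of 28 were higher and 0 lower in Tut1f/f;Trp53f/f;Cre against Trp53f/f;Cre, where 11.1% and 7.25% of all genes were.

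Promoter windows, from 250 bases before to 50 after the annotated start (RefSeq, GRCm38.p6), were available for 40 of the members. GGAAGT, on either strand, was present for 9 of 14 regulatory genes (64.3%) and 5 of 11 core genes (45.5%), and for 26.5% of all genes with a window. CCAAT was present for 4 (28.6%) and 6 (54.5%), against 41.1% of all genes. TGACNNNGC, the pattern of antioxidant response elements, was present for 2 (14.3%) and 2 (18.2%), against 14% of all genes. Overlapping matches were counted. Promoters of Psmd12 and Psmd13, 2 of the 4 called lid genes, are shown for the 250 bases before the start on the plus strand, with matches to any of the patterns in capitals. Psmd8 had a window with 1 GGAAGT, which is not printed, and none was available for Psmd7. A match is a description of the letters and not a bound site.
Psmd12, chr11:107479278-107479527: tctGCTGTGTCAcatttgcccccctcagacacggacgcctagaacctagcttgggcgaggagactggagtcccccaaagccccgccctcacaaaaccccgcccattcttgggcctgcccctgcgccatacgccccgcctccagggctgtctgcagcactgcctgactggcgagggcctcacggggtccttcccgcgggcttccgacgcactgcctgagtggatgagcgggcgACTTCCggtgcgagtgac
Psmd13, chr7:140882144-140882393: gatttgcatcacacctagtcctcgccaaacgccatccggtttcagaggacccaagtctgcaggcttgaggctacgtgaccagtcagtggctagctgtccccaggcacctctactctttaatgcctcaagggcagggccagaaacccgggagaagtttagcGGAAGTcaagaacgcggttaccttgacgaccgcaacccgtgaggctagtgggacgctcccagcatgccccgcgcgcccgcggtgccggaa

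Some members cannot be fully separated from other genes. Of the words of 25 bases in Psme2b, 79.5% also occur in Psme2, and Psme2b had 15, 6, 6 and 7 reads, so its values are uncertain. Gm13835, a pseudogene made wholly of Psma3 words, held 65, 55, 62 and 33 reads against 1339 to 1724 of Psma3. Of all members, 38 had at least 100 reads in every library, 2 had under 20 in each, and 0 had no reads in a library.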

How the data were processed

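The authors deposited 1 table of read counts per isoform, whole numbers that were not normalized, with 1 column for each of the 4 libraries (cDNA-PCR Nanopore sequencing of total RNA). The build was mm10 per the submitters' processing notes, and the aligner, filters and use of strand behind this table are not given in the sources used here. The study's methods name minimap2 and FLAIR for long reads of its pallium libraries, and do not say whether they were used for this table. Entries that named no gene stayed out of library sizes and tests. Isoform counts were summed per gene identifier, and names, biotypes and positions (1-based) came from GENCODE M21.

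Members and gene lists were chosen with earlier results of these data known. Counts were scaled by TMM and tested with edgeR 4.0.16 in R 4.3.3 (default expression filter), with DESeq2 1.42.0, library totals, no filter, a 2-fold limit, other pseudocounts, plain transcripts and leaving out a library as alternatives. Called means an adjusted p under 0.05. Pairs of libraries had no test for genes. Isoforms entered the exact test from 10 reads over both libraries, where the gene held 20 reads or more in each. The main transcript of a gene was its plain coding Ensembl transcript with most reads. Named are members called or past the ratio rule in all 3 control comparisons or between Tut1f/f;Trp53f/f;Cre and Trp53f/f;Cre, the catalytic and inducible subunits, the highest member per kb of each group, and called isoforms; others were chosen after their values were seen. The tests across genes and isoforms were checked on simulated data. Python 3.11.15, numpy 2.4.6, scipy 1.17.1, pandas 2.3.3 and matplotlib 3.10.9 were used. Some genes of the ubiquitin pathway list are not reported here by name.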

Additional observations from a re-analysis of the deposited data

How the results depend on the processing

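Of 85 recomputed values, 67 were classed as the same. For counts this meant within 1.5 times of the reported ones, or 0 in both. For medians it meant the same sign and a move smaller than the typical counting error of a member. Of the rest, 13 were weaker, 2 stronger, 1 moved and 2 reversed in sign. With a 2-fold limit in place of 1.5-fold, the members counted against the control fell to 3 for Tut1f/f;Cre, 7 for Trp53f/f;Cre and 1 for Tut1f/f;Trp53f/f;Cre, and to 1 for Tut1f/f;Trp53f/f;Cre against Trp53f/f;Cre. With 20 percentage points in place of 10, the member isoforms called were 2, 3, 0 and 0 in that order. The edgeR calls for Cre mRNA were 1 with a 2-fold limit (17.1% of all genes), 3 by DESeq2 (10.52%), and 0 to 16 when a library was left out (0.0581% to 37.3%), and the isoform calls for Cre mRNA were 1 to 7 when a library was left out (0.485% to 4.31% of all isoforms). The 2-fold and 20-point limits are stricter by construction; for the others the cause was not tested. Scaling by library totals moved the median of all genes to 0.11 for Tut1f/f;Cre, 0.09 for Trp53f/f;Cre and 0.12 for Tut1f/f;Trp53f/f;Cre on the log2 scale. With it the core median was 0.10 for Tut1f/f;Cre, -0.0085 for Trp53f/f;Cre and 0.34 for Tut1f/f;Trp53f/f;Cre, and 8 members passed the ratio rule for Tut1f/f;Trp53f/f;Cre. Counting plain Ensembl transcripts only put the core median at 0.025 for Tut1f/f;Cre, and the cause was not tested. Relative to all genes, the core stood at -0.02 for Tut1f/f;Cre under TMM and at -0.01 under library totals. The regulatory median stayed negative in the control comparisons under each alternative run, though for Tut1f/f;Trp53f/f;Cre it moved from -0.22 to -0.09 under library totals. Depth limits isoform values of genes with few reads, such as Psmd5 with 35 to 152 per library. No paired analysis was possible because each group has 1 library and the labels give no replicate numbers.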

Other observations

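Reads of pseudogenes and other genes that copy a member were few beside those of the member. Of 9 genes that shared 20.2% to 100% of their sequence words of 25 bases with a member, Gm13835 (words of Psma3, 215 reads over the 4 libraries) and Chek2 (a coding gene with words of Psmd11, 104 reads) had more than 7 reads.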
